A study of Homo sapiens with 4 samples.

Results

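The 43 genes described here encode the transport and gating machinery of the primary cilium. They were chosen by name from the 57820 gene identifiers of the count files: 12 subunits of the intraflagellar transport complex IFT-B, 6 of IFT-A, 9 genes of the BBSome and its partners, 6 ciliary motor genes and 10 genes of the transition zone and basal body. All 43 matched an identifier, and 42 had enough reads to be tested; the exception was BBS1. RNA was sequenced from Daoy, an established human medulloblastoma cell line, in 3 libraries labelled wild type (replicates 1 to 3) and 1 library labelled ARID1B shRNA, hereafter the shRNA-labelled library. The hairpin's target, ARID1B, belongs to the SWI/SNF (BAF) chromatin remodelling complex and contacts DNA. The hairpin was carried by the lentiviral vector tet-pLKO-puro in polyclonal Daoy populations and is switched on by doxycycline. The treatment label, 1 µg/ml doxycycline for 72 h, is worded the same for all 4 libraries. Controls were vector-only and parental cells, per the series design, and no label tells these apart among the wild-type libraries. The shRNA arm has no replicate. No label gives the wild-type libraries separate cultures, and p-values therefore measure only the spread between these libraries.

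The primary cilium is a microtubule-based antenna that most vertebrate cells build from the mother centriole when they leave the cell cycle. IFT-B trains, pulled by kinesin-2, carry cargo toward the tip, and IFT-A trains, pulled by dynein-2, bring it back. The BBSome moves membrane proteins out, and the transition zone is the gate at the base. In cerebellar granule cell precursors, the cells from which Sonic Hedgehog medulloblastoma arises, Hedgehog signalling runs through this organelle.

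The wild-type libraries held 12619786, 13228587 and 15390106 reads in genes, and the shRNA-labelled library 8792848. ARID1B itself stood at 164, 88.0 and 72.9 CPM (a gene's reads scaled to library size, here by TMM) in wild-type libraries 1 to 3 and at 175 CPM in the shRNA-labelled library. The target mRNA was therefore not lower there (log2 fold change 0.69, standard error (SE) 0.46, edgeR adjusted p = 0.399). Leaving out wild-type library 1 gave a log2 fold change of 1.12 (edgeR adjusted p = 0.026), and with a joint trend on GC content and length removed the value was -0.15 (edgeR adjusted p = 0.907). In the list of granule-lineage and medulloblastoma markers, ATOH1 had 0 counts in every library. ZIC1 and PAX6 lay at 12.3 to 17.8 and 20.9 to 26.6 CPM in wild type. The 12 markers of that list summed to 2520 to 2740 CPM in wild type and 1030 in the shRNA-labelled library. Most of that sum was VIM, so it says little about the other markers of the list. Of its 8 tested markers VIM was called lower (log2 fold change -1.42, edgeR adjusted p = 0.0213) and ZIC2 higher (1.425, edgeR adjusted p = 0.043). FOXJ1, the master regulator of motile cilia, had 0 counts in the wild-type libraries and 1 in the other. Across the transcriptome 763 of 17024 tested genes (4.48%) passed edgeR's quasi-likelihood test at an adjusted p below 0.05. Leaving out wild-type library 1, 2 or 3 gave 1189, 157 or 478 calls (7.07%, 0.938% or 2.85%).

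Most cilium mRNAs measured somewhat lower in the shRNA-labelled library than in wild type, and none passed edgeR's test. By edgeR 0 of the 42 tested genes were called, against 4.48% of all tested genes (3.65% higher and 0.834% lower). At an unadjusted edgeR p below 0.05, 3 were higher (BBS5, KIF7 and INPP5E; 7.14%, against 15.6% of all genes) and 6 were lower (IFT74, IFT81, WDR19, BBS10, DYNC2H1 and TMEM67; 14.3%, against 9.79%). DESeq2 called 3 of the 42, KIF7 and INPP5E higher and IFT74 lower, against 11.8% of all genes (8.88% higher and 2.92% lower). Limma-voom called 0, against 4.81%. Under other edgeR settings the call was INPP5E alone with RLE scaling (5.06% of all genes), 5 genes with no filter on low counts (10.5%), and 0 with upper-quartile scaling (4.39%), a mean count of at least 50 (4.82%) or no robust shrinkage (4.51%). The median log2 fold change of the 42 genes was -0.37, beside -0.05 over all tested genes, and 31 of them (73.8%) had a negative value, beside 53.2%. The shRNA-labelled library lay below all 3 wild-type libraries for 29 of the 42 genes (69%), against 37.9% of all genes, and above them for 10 (23.8%), against 35.4%. For 21 of the 42 the 95% interval of the fold change stayed within 2-fold in either direction, and for the other 21 it reached beyond.

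**Figure D1:**
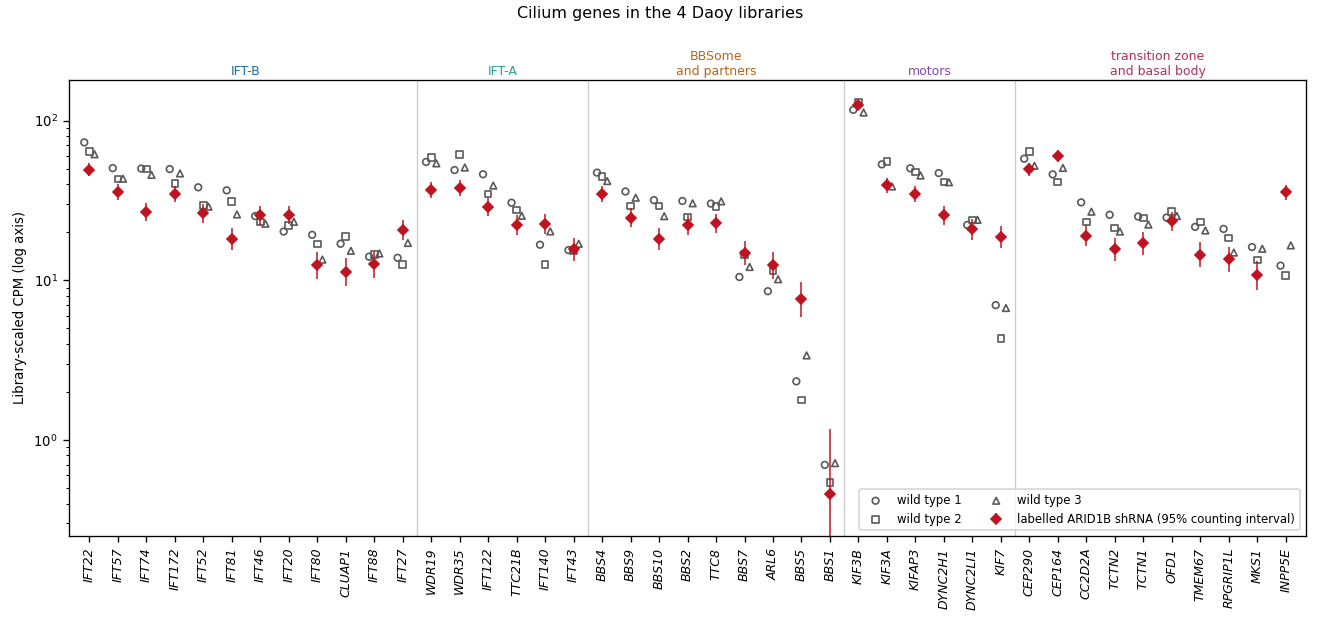
Library-scaled CPM (log axis) of the 43 cilium genes by role, in 3 wild-type libraries (open symbols) and the shRNA-labelled library (red diamonds, bars are exact 95% Poisson intervals of the count). The red diamond lies below all open symbols for 29 of the 42 tested genes, and far above them for KIF7, INPP5E and BBS5.

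Base composition moved with these fold changes. The cilium genes are rich in A and T: 25 of the 42 (59.5%) had a GC content under 45% in their longest annotated transcript, beside 37.7% of all tested genes, and 2 (4.76%), INPP5E and KIF7, reached 60%, beside 12.8%. Over all tested genes under 40% GC the median log2 fold change was -0.29, and over those of 60% and more it was 1.13. The 16 cilium genes under 40% GC had a median of -0.41, and INPP5E and KIF7 stood at 1.43 and 1.64. Across the 42 genes, which share their libraries and are not replicates, GC content correlated with the log2 fold change at a Pearson coefficient of 0.60 and a Spearman coefficient of 0.32; over 16620 tested genes the values were 0.45 and 0.47. To show what this contrast looks like, the middle 90 bases of the longest coding sequence are printed for the 2 members of highest GC content and for ARL6 and CEP290, of low GC content, from the GENCODE 29 transcripts, with G and C in capitals.
KIF7: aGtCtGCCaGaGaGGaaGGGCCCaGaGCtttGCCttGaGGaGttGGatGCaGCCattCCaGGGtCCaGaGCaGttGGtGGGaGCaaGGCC
INPP5E: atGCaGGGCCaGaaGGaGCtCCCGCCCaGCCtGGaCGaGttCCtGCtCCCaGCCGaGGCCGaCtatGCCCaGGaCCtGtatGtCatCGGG
ARL6: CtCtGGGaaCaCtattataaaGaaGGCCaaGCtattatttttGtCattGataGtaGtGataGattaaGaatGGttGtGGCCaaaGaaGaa
CEP290: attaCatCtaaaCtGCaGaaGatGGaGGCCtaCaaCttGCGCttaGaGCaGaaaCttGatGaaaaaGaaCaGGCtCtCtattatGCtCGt
Of the 90 bases, 54 and 59 are G or C for KIF7 and INPP5E and 31 and 37 for ARL6 and CEP290. The whole coding sequences hold 65.8%, 65.6%, 38.0% and 35.1%.

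**Figure D2:**
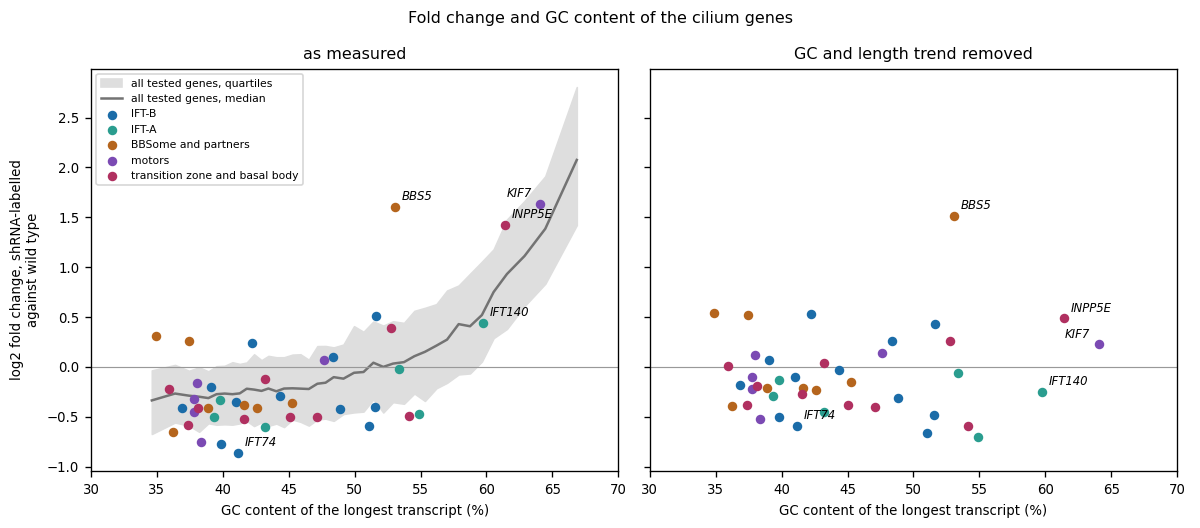
Log2 fold change of the 42 tested cilium genes against the GC content of the longest transcript (%). Values are as measured (left) and with the GC and length trend of each library removed (right). In the left panel only, the grey line and band are the median and quartiles of all tested genes. As measured, KIF7 and INPP5E lie within the grey band at 1.64 and 1.43; with the trend removed they lie at 0.23 and 0.49, and BBS5 lies at 1.52.

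The median of the cilium genes moved toward 0 once the dependence on GC content and length was taken out of each library. It went from -0.37 to -0.19, beside -0.03 over all genes, and the Spearman correlation with GC content went to -0.01. The median also depended on how the trend was drawn: it was -0.13 with a joint trend on both properties and -0.16 with the mean GC content of all transcripts of a gene (0 genes called in either, against 3.23% and 2.27% of all genes). Without the trend 21 of the 42 genes (50%) lay below all wild-type libraries, against 36.3% of all genes, and 10 (23.8%) above, against 34.7%. By edgeR 0 of the 42 were called, against 2.996% of all genes, with 3 higher and 7 lower at an unadjusted p below 0.05 (against 12.7% and 11.1%). Some genes moved away from 0, among them IFT122 (-0.47 to -0.70), CLUAP1 (-0.59 to -0.66), MKS1 (-0.49 to -0.59), IFT20 (0.24 to 0.54) and ARL6 (0.31 to 0.54). BBS5 had the largest difference that remained.

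**Figure D3:**
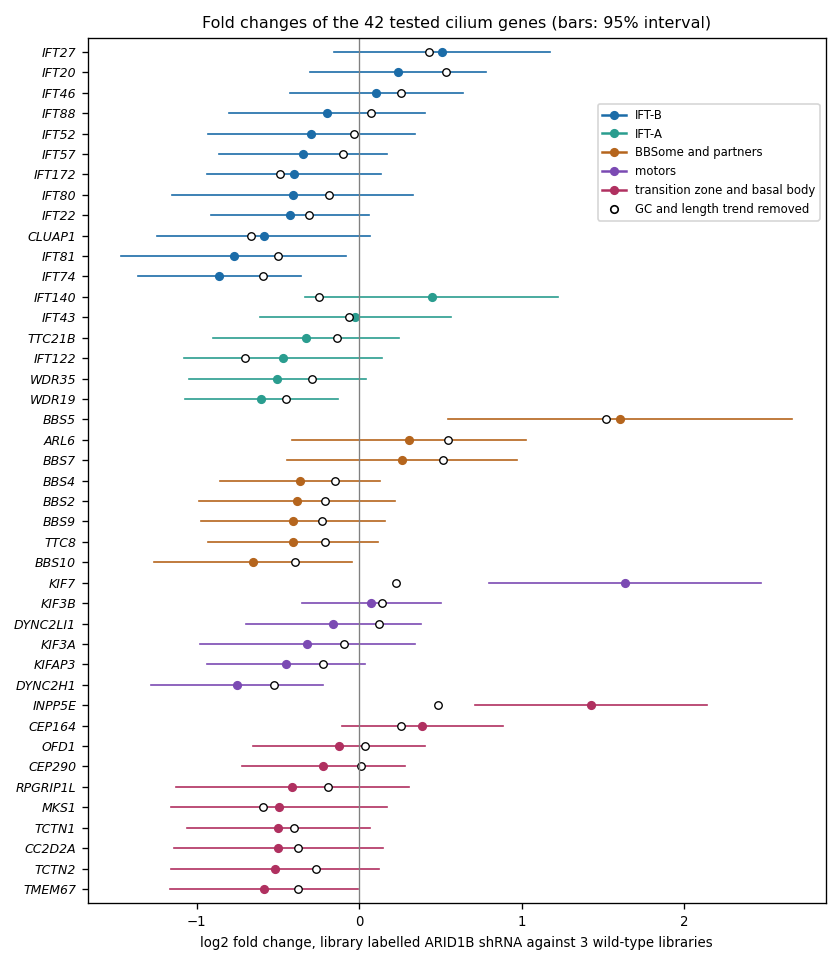
Log2 fold change of each tested cilium gene, by role, for the shRNA-labelled library relative to wild type; filled points with bars are values as measured with their 95% interval, and open points are values with that trend taken out. The filled and open points of KIF7 (1.64 and 0.23) and INPP5E (1.43 and 0.49) lie far apart, while those of IFT74 (-0.86 and -0.59) and BBS5 (1.60 and 1.52) lie nearer to each other; all 4 pairs stay on 1 side of 0.

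The IFT-B complex forms the anterograde trains. Of its 12 genes 9 had a negative and 3 a positive log2 fold change, with a median of -0.37 as measured and -0.14 with the trend removed. IFT74 and IFT81 pair to form the tubulin-binding module of the train. IFT74 stood at 50.1, 49.8 and 45.7 CPM in wild type and at 26.7 CPM in the shRNA-labelled library, the lowest of the 4 by a wide margin. Its log2 fold change was -0.86 (95% interval -1.36 to -0.36, edgeR adjusted p = 0.0737), and -0.59 with the trend removed (edgeR adjusted p = 0.103). Reads of IFT74 are uncertain where its exons overlap those of PLAA on the opposite strand (272 bases), as are those of KIF7 with TICRR (589 bases), IFT80 with SMC4 (607 bases) and IFT20 with TMEM97 (361 bases), and those of several other members that overlap a neighbour. IFT81 measured 36.6, 31.1 and 25.8 CPM against 18.25 CPM, a log2 fold change of -0.77 (95% interval -1.46 to -0.08, edgeR adjusted p = 0.164), and -0.50 with the trend removed. Its wild-type values spread more widely than those of IFT74, and the shRNA-labelled value again lay below them all. The 2 partner genes thus had similar values, and both missed the threshold.

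CLUAP1, also called IFT38, helps to link the subcomplexes of the train. It stood at 16.9, 18.8 and 15.3 CPM and at 11.3 CPM in the shRNA-labelled library, below all wild-type libraries (log2 fold change -0.59, SE 0.27, edgeR adjusted p = 0.233). The small GTPase-like subunit gene IFT22 measured 73.0, 64.2 and 61.5 CPM against 49.3 CPM (log2 fold change -0.43, SE 0.20, edgeR adjusted p = 0.243). IFT172, the large subunit at the tip turnaround, had -0.40, and the remaining members below 0 were IFT80 (-0.41), IFT57 (-0.35), IFT52 (-0.29) and IFT88 (-0.20). IFT88, whose loss abolishes cilia in the classical mouse model, was the steadiest in wild type, at 14.1, 14.5 and 14.7 CPM, and measured 12.55 CPM in the other library. The 3 genes with positive values were IFT27 (0.51), a GTPase needed for the exit of the BBSome from cilia, IFT20 (0.24), which also works at the Golgi, and IFT46 (0.10). Each of them lay above all 3 wild-type libraries, also with the trend removed, and none passed the test. These 3 of 12 genes (25%) stand beside 35.4% of all tested genes, and 34.7% with the trend removed. Below all wild-type libraries lay 9 (75%), against 37.9% of all genes, and 5 (41.7%) with the trend removed, against 36.3%.

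IFT-A drives the return journey and loads membrane proteins. Of its 6 genes 5 had negative values, with a median of -0.40, and with the trend removed all 6 were negative, with a median of -0.27. WDR19, which encodes IFT144, stood at 55.03, 58.9 and 54.0 CPM in wild type and at 36.8 CPM in the shRNA-labelled library. The wild-type values lay close together, and the log2 fold change was -0.60 (95% interval -1.07 to -0.13, edgeR adjusted p = 0.130). WDR35, its relative that encodes IFT121, measured 49.0, 61.2 and 50.8 CPM against 37.9 CPM (log2 fold change -0.50, SE 0.22, edgeR adjusted p = 0.227), and -0.29 with the trend removed. IFT122 measured 46.1, 34.6 and 39.2 CPM against 28.9 CPM, and TTC21B, the IFT139 gene, 30.6, 27.5 and 25.3 CPM against 22.1 CPM (log2 fold changes -0.47 and -0.33, and -0.70 and -0.135 with the trend removed). All 4 lay below the wild-type range as measured and with the trend removed. Of the 6 genes 4 (66.7%) lay below it as measured, against 37.9% of all genes, and 5 (83.3%) with the trend removed, against 36.3%. Above it lay 1 (16.7%) as measured, against 35.4%, and 0 with the trend removed, against 34.7%.

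IFT140 was the IFT-A gene of highest GC content (59.7%) and alone had a positive value. It measured 16.7, 12.5 and 20.2 CPM in wild type against 22.5 CPM in the shRNA-labelled library (log2 fold change 0.45), and with the trend removed its value was -0.25 and lay below the wild-type range. IFT43, a small subunit of the complex, measured 15.45, 15.3 and 16.9 CPM against 15.6 CPM, inside that range (log2 fold change -0.03, 95% interval -0.61 to 0.56). Summed over the 6 genes, IFT-A mRNA came to 212.8, 210.1 and 206.5 CPM in wild type against 163.8 CPM in the other library, 0.781 of the wild-type mean. In bulk RNA, fewer cells that express a gene and less RNA per cell cannot be told apart.

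The BBSome is a protein coat that carries signalling receptors out of the cilium. Of the 8 tested genes of this group 5 had negative values and 3 positive ones, with a median of -0.37, and of -0.18 with the trend removed. BBS10, a chaperonin-like protein needed to assemble the complex, stood at 31.7, 29.2 and 25.2 CPM and at 18.25 CPM in the shRNA-labelled library (log2 fold change -0.65, 95% interval -1.26 to -0.04, edgeR adjusted p = 0.175), and -0.39 with the trend removed. The core subunit genes BBS4, TTC8 (BBS8), BBS9 and BBS2 had values from -0.41 to -0.37, each below all wild-type libraries, and from -0.23 to -0.15 with the trend removed, where BBS2 and BBS9 lay inside the wild-type range. BBS4, the most abundant of them, measured 47.2, 44.6 and 41.8 CPM against 34.6 CPM. BBS7 (0.26) and ARL6 (0.31), the latter the GTPase that recruits the coat to membranes, stood above the wild-type range as measured and with the trend removed. With BBS5, 3 of the 8 tested genes (37.5%) lay above it in either case, against 35.4% and 34.7% of all genes. Below it lay 5 (62.5%), and 3 (37.5%) with the trend removed, against 37.9% and 36.3%. ARL6 measured 8.54, 11.4 and 10.2 CPM against 12.4 CPM.

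BBS5, a lipid-binding subunit, stood apart from the other BBSome genes. It had 30, 23 and 52 reads in wild type and 67 in the smaller shRNA-labelled library, or 2.33, 1.78 and 3.39 CPM against 7.64 CPM (95% counting interval 5.92 to 9.71). The shRNA-labelled library was thus above every wild-type library, by 3.04-fold in the fit (log2 fold change 1.60, 95% interval 0.54 to 2.66, edgeR adjusted p = 0.0952). With the trend removed the value was 1.52 (edgeR adjusted p = 0.101), and 1.79 with the mean GC content of its transcripts in the trend. Its longest transcript holds 53.1% G and C and its coding sequence 37.6%. BBS1, the subunit that binds ARL6, had only 9, 7, 11 and 4 reads in the 4 libraries and was not tested. Both genes share exons on the same strand with another annotated gene that had 0 counts in all 4 libraries, as do IFT80 and CLUAP1. Reads in such exons can be set aside as ambiguous by the counting, so the levels of these 4 genes may be understated, and this was not tested.

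Among the motors, kinesin-2 is built from KIF3A, KIF3B and KIFAP3. KIF3B was the most abundant of all 43 genes in CPM, at 116.6, 130.0 and 112.3 in wild type and 125.9 in the shRNA-labelled library, inside the wild-type range (log2 fold change 0.07, 95% interval -0.35 to 0.50, and -0.05 with upper-quartile scaling). KIF3A, its partner, measured 53.2, 55.5 and 38.7 CPM against 39.35 CPM, also inside the range (log2 fold change -0.32, 95% interval -0.98 to 0.34; -0.10 with the trend removed). KIFAP3, the adaptor that joins them, measured 50.2, 47.5 and 45.3 CPM against 34.9 CPM (log2 fold change -0.45, SE 0.20, edgeR adjusted p = 0.223), and -0.22 with the trend removed (edgeR adjusted p = 0.458). The heavy chain of dynein-2, DYNC2H1, stood at 46.9, 41.3 and 41.1 CPM against 25.55 CPM. Its log2 fold change was -0.75 (95% interval -1.28 to -0.22, edgeR adjusted p = 0.106), and -0.52 with the trend removed. The light intermediate chain gene DYNC2LI1 measured 22.2, 23.8 and 23.9 CPM against 20.9 CPM (-0.16).

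KIF7 is a kinesin that sets the tip of the cilium and regulates GLI factors rather than carrying trains. It had the largest positive fold change of the tested genes, from 6.99, 4.33 and 6.70 CPM in wild type to 18.7 CPM (95% counting interval 15.95 to 21.8), about 3.11-fold in the fit. The groups did not overlap, and the log2 fold change was 1.64 (95% interval 0.80 to 2.47, edgeR adjusted p = 0.0572). It passed when wild-type library 1 was left out (1.75, edgeR adjusted p = 0.0278). At 64.05% GC, KIF7 is also the most GC-rich member. With the trend removed the CPM were 9.30, 7.26 and 6.498 in wild type and 8.96 in the other library, inside the wild-type range (log2 fold change 0.23, edgeR adjusted p = 0.665). With the mean GC content of all KIF7 transcripts in the trend the value was 0.87 (edgeR adjusted p = 0.136).

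The transition zone and basal body group showed the same split. Of its 10 genes 8 had negative values, with a group median of -0.45, and of -0.23 with the trend removed. Those 8 (80%) lay below the wild-type range, against 37.9% of all genes. With the trend removed 6 (60%) lay below it, against 36.3%. Above it lay 2 (20%), and 3 (30%) with the trend removed, against 35.4% and 34.7%. INPP5E, the phosphatase that sets the lipid identity of the ciliary membrane, stood at 12.3, 10.7 and 16.5 CPM in wild type and at 35.5 CPM in the shRNA-labelled library, above all of them (log2 fold change 1.43, 95% interval 0.71 to 2.14, edgeR adjusted p = 0.0556). With RLE in place of TMM scaling it passed (1.46, edgeR adjusted p = 0.0492). With the trend removed it measured 14.96, 15.6 and 15.8 CPM in wild type, values that nearly coincided, and 21.7 CPM in the other library (log2 fold change 0.49, SE 0.17, edgeR adjusted p = 0.170). With the mean GC content of its transcripts in the trend the value was 0.22 (edgeR adjusted p = 0.493). CEP164, the distal appendage protein with which ciliogenesis begins, was the other positive gene, at 46.0, 41.3 and 50.5 CPM against 60.1 CPM (0.39, edgeR adjusted p = 0.283; 0.26 with the trend removed).

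TMEM67, a membrane receptor of the gate, measured 21.6, 23.2 and 20.5 CPM in wild type against 14.5 CPM in the shRNA-labelled library (log2 fold change -0.59, 95% interval -1.17 to -0.01, edgeR adjusted p = 0.194), and -0.38 with the trend removed. The tectonic genes TCTN1 and TCTN2, which encode secreted or membrane partners of the same complex, had nearly equal values: 25.1, 24.6 and 22.3 CPM against 17.0 CPM for TCTN1, and 25.7, 21.3 and 20.2 CPM against 15.6 CPM for TCTN2. Their log2 fold changes were -0.50 and -0.52 (edgeR adjusted p = 0.242 and 0.272), and -0.40 and -0.27 with the trend removed. MKS1 and CC2D2A, of the same complex, had -0.49 and -0.50, and RPGRIP1L -0.41. CEP290, the large linker of the gate, measured 57.7, 63.7 and 52.1 CPM against 49.6 CPM (log2 fold change -0.22, 95% interval -0.72 to 0.28) and 0.01 with the trend removed. OFD1, a centriolar satellite and distal centriole protein, had -0.12 and 0.04.

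Per length, the levels of these genes in wild type spanned a wide range. The median over the 43 genes, averaged over the wild-type libraries, was 6.95 CPM per kilobase of the longest transcript. IFT22 had the highest level, 29.2 ± 2.63 (SD, n = 3), followed by IFT74 (19.95 ± 1.005), KIF3B (19.6 ± 1.51), IFT52 (18.3 ± 2.965) and BBS4 (17.9 ± 1.085). From IFT74 to BBS4, neighbours in this order do not differ beyond their spread. The lowest were BBS1 (0.182 ± 0.0269), BBS5 (0.719 ± 0.235) and KIF7 (1.32 ± 0.321). With the median transcript length in place of the longest, the median level was 21.3 CPM per kilobase and WDR19 ranked first, with IFT74 second, while BBS1 and BBS5 stayed last. The order in between depends on the length used: the rank correlation of the 2 orders was 0.649.

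**Figure D4:**
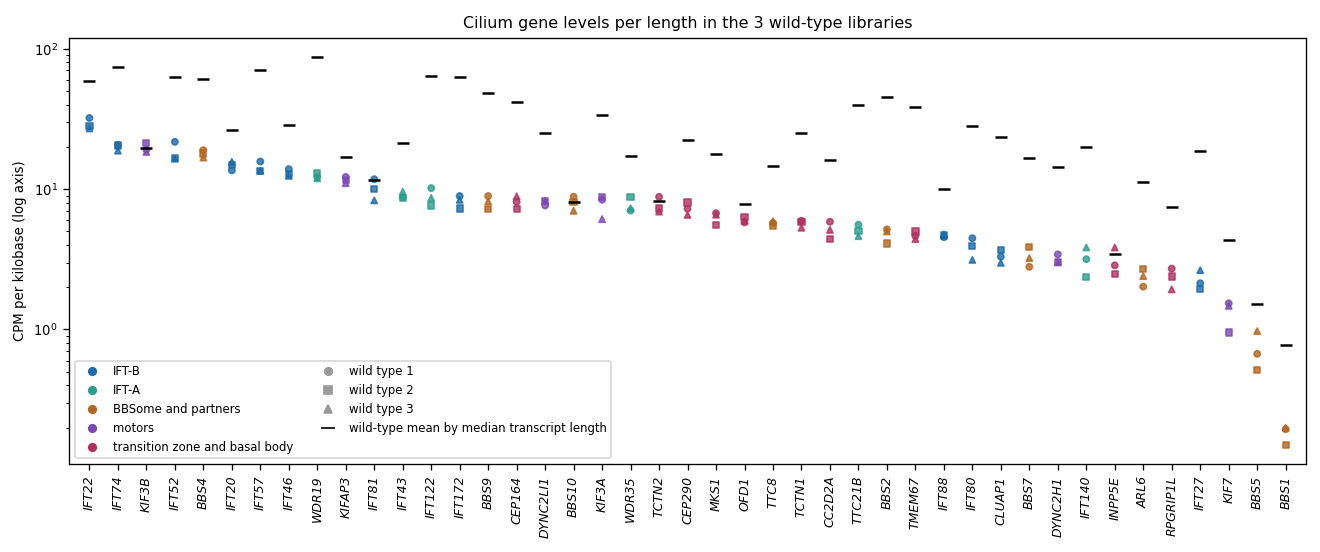
Wild-type level of the 43 cilium genes in CPM per kilobase (log axis), ordered by the mean over 3 libraries; coloured symbols use the longest annotated transcript and black dashes the median transcript length. IFT22 is highest at 29.2 and BBS1 lowest at 0.182 CPM per kilobase of the longest transcript.

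Some promoters of these genes hold letters that the choice by name did not use. Regulatory factor X (RFX) proteins, which drive many cilium genes, bind the X-box, a motif built from inverted copies of GTTGCC. The 300 bases around the start (250 before, 50 after) were found in RefSeq (GRCh38.p14) for 38 of the 43 genes. GTTGCC, on either strand, stood in 18 of the 38 genes (47.4%), beside 14.6% of all 27305 genes in the table. By window rather than gene the shares were 20 of 44 (45.5%) and 12.2% of 35116. A longer X-box palindrome, both inverted copies around a fixed centre, stood in 0 of the 38 and in 0.168% of all genes. WDR35, BBS9, TMEM67, TCTN2 and IFT22 had no entry. Matches were found in 6 of 11 IFT-B, 1 of 5 IFT-A, 5 of 8 BBSome, 2 of 6 motor and 4 of 8 transition zone genes. Matches after the start, in BBS1, CEP164, DYNC2H1, IFT81, IFT88 and TCTN1, are not printed. Windows just before the start are printed, with the match in capitals (GGCAAC is GTTGCC on the other strand), for members with a match that lies before the start and within 30 bases of it.
ARL6 (chr3:97764714-97764757, + strand): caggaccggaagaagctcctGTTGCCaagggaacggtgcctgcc
BBS5 (chr2:169479460-169479493, + strand): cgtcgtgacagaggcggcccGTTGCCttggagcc
CLUAP1 (chr16:3500962-3501003, + strand): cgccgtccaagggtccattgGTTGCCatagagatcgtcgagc
DYNC2LI1 (chr2:43774011-43774038, + strand): ggccgcgacgtcgctcccatGGCAACcc
IFT74 (chr9:26956364-26956409, + strand): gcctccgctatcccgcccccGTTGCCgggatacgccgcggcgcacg
IFT122 (chr3:129440192-129440223, + strand): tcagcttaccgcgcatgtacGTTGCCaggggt
MKS1 (chr17:58219264-58219309, - strand): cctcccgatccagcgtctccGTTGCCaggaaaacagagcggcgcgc
OFD1 (chrX:13734720-13734747, + strand): tatttagcaggtttccggaaGTTGCCgg
TTC8 (chr14:88824597-88824642, + strand): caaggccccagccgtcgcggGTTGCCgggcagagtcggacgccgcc
The fold changes did not divide by these letters. The 17 tested genes with a match had a median log2 fold change of -0.41 (range -0.86 to 1.60), and the 20 without had -0.32 (range -0.60 to 1.64). A match of letters is a description and not a measured binding site.

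Of 121 further cilium genes of 8 lists, 115 were tested, and by edgeR 2 were called, both higher, PKD1 and TPGS1, against 3.65% of all tested genes called higher and 0.834% lower. Over the 115 the median log2 fold change was -0.12, and -0.10 with the trend removed. TPGS1, a subunit of the tubulin polyglutamylase that modifies axonemal tubulin, went from 0.466, 0.232 and 0.716 CPM to 7.53 CPM (3.94 on the log2 scale, edgeR adjusted p = 0.0269), on 6, 3 and 11 reads in wild type and 66 in the other library. PKD1, the ciliary polycystin gene, went from 9.62, 6.34 and 16.5 CPM to 96.2 CPM (3.14, edgeR adjusted p = 0.0351), a value made uncertain by several near-identical pseudogene copies. With the trend removed they stood at 3.06 and 1.32 and passed (edgeR adjusted p = 0.0324 and 0.0332), as did CEP120, a centriole assembly gene, at 0.84 (edgeR adjusted p = 0.048); these 3 calls stand beside 2.996% of all genes. Leaving out wild-type library 2 gave 0 calls among the further genes (against 0.938% of all genes), and leaving out library 1 gave 5 (against 7.07%).

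No gene of the remaining lists passed as measured. Among 16 other IFT, BBSome and dynein-2 genes the smallest p was that of WDR34, a dynein-2 intermediate chain, at 40.05, 25.35 and 42.4 CPM against 76.4 CPM (log2 fold change 1.09, edgeR adjusted p = 0.107; -0.30 with the trend removed). The tectonic gene TCTN3 ran like TCTN1 and TCTN2, from 54.6, 54.2 and 50.6 CPM to 35.1 CPM (-0.60, edgeR adjusted p = 0.133). CEP131, a centriolar satellite gene, had 2.21 (edgeR adjusted p = 0.0648) and 0.63 with the trend removed, and RFX1, an X-box factor of 65.1% GC, had 2.14 (0.0515) and 0.60. TRIP6, of the list of cilium disassembly and capping genes, had 1.14 (edgeR adjusted p = 0.139) and 0.01 with the trend removed. RFX3, the family member best known from ciliogenesis, measured 16.4, 22.2 and 15.7 CPM against 15.5 CPM. AURKA, the kinase that starts cilium disassembly, measured 97.0, 95.7 and 63.0 CPM against 94.1 CPM, inside the wild-type range.

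The Hedgehog genes that signal through the cilium varied more between the wild-type libraries, with a median coefficient of variation of 35.3%, beside 10.2% for the 42 cilium genes. Of 11 such genes 10 were tested, 8 had negative values and 0 were called by edgeR, with 1 higher and 2 lower at an unadjusted p below 0.05. Over all tested genes 53.2% had negative values, 4.48% were called, and 15.6% were higher and 9.79% lower at that unadjusted p. The median log2 fold change of the 10 genes was -0.70 as measured and -0.74 once the trend was taken out. In the latter case 9 were negative, against 52.3% of all genes, and 0 were called, against 2.996%. Below all wild-type libraries lay 6 (60%) as measured and 8 (80%) without the trend, against 37.9% and 36.3% of all genes. Above them lay 2 (20%) and 0, against 35.4% and 34.7%. The target and receptor gene PTCH1 measured 41.7, 22.9 and 37.0 CPM against 19.5 CPM (log2 fold change -0.80, edgeR adjusted p = 0.263). GLI1, the target most used as a readout, measured 2.95, 0.618 and 2.15 CPM against 1.26 CPM, inside the wild-type range. SMO measured 71.5, 35.1 and 57.9 CPM against 72.8 CPM (0.41, edgeR adjusted p = 0.547). Its value turned negative once the trend was taken out (-0.51, edgeR adjusted p = 0.415) and lay below the wild-type range. GAS1, a co-receptor, had the smallest p, from 125.1, 41.9 and 42.8 CPM to 11.2 CPM (-2.64, SE 0.86, edgeR adjusted p = 0.146). For PTCH1, GLI1, SMO and GAS1 library 1 was the highest wild-type library.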

How the data were processed

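The authors deposited raw read counts per gene, in a separate file for each library. The submitters' processing notes name bcl2fastq, HISAT2, HTSeq and DESeq2 with GRCh37 (hg19); their versions, counting mode, strand option and gene annotation were not given in the sources used here, and reads of overlapping genes are therefore uncertain. Reads were 100-nucleotide single-end, per the labels' protocols. Each file closes with 5 summary lines, which entered no library total or test. Reads outside genes were 7.38% ± 0.293 (SD, n = 3) in wild type and 5.27% in the shRNA-labelled library. These are shares of the reads in genes, ambiguous reads and reads outside genes together, not of all reads sequenced.

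Symbols, GC content and length came from GENCODE 29 (GRCh38), which held 90.5% of the identifiers; its build differs from the authors' build, so count coordinates are not given. Counts were fitted with edgeR 4.0.16 in R 4.3.3: filterByExpr (minimum count 10, total 15), TMM, robust glmQLFit and glmQLFTest, 3 libraries against 1, with 2 residual degrees of freedom, all from wild type, and Benjamini-Hochberg adjustment over 17024 genes at 0.05. The lone library is assumed to vary as the others do. Variances were moderated across genes, with a median of 3.83 prior and 5.83 total degrees of freedom. The 95% intervals of the fold changes use the total of each gene. SE is the absolute log2 fold change divided by the square root of F. Counting intervals are exact 95% Poisson intervals and cover counting error only. The trend on GC content and length was a loess curve of each library (span 0.3, genes of mean count 20 or more), removed through offsets, for the 97.6% of tested genes with a known GC content. DESeq2 1.42.0, limma-voom (limma 3.58.1), RLE or upper-quartile scaling, no low-count filter, a filter at a mean count of 50, no robust shrinkage and leaving out each wild-type library were the alternatives; the joint trend and the trend on mean GC content were chosen after seeing the data. The procedure was also run on simulated counts with the same fixed spread for every gene and library. That run could not test the assumption that the lone library varies as the others do.

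The 43 genes and the lists were chosen with earlier results of these data known. Named in full were, by role, the called members or the 4 with the smallest p, the highest and lowest level per length, the pairs KIF3A and KIF3B, TCTN1 and TCTN2, WDR19 and WDR35, and, of the other lists, called genes or the smallest p, with AURKA, GLI1, PTCH1 and SMO (1 further gene is not reported here); others named in passing, such as RFX3, were chosen after their values were seen. Of 168 entries in the other lists 166 matched an identifier.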

Additional observations from a re-analysis of the deposited data

How the results depend on the processing

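The limits are a single shRNA-labelled library, its GC trend against wild type, and counts too low for BBS1. The wild-type libraries also differ in GC trend. Over all tested genes the median log2 fold change was -0.29 under 40% GC and 1.13 at 60% and more. With 1 library, a technical trend and a change in expression linked to GC content cannot be told apart. Removing the trend may remove part of such a change, and this was not tested. No paired analysis was possible because the shRNA arm has 1 library and its label carries no number. Of 272 values of 21 named cilium genes under 13 alternatives, 260 kept their direction and their side of the threshold, 10 now passed and 2 reversed: KIF3B at -0.05 (upper-quartile scaling) and KIF3A at 0.00 (trend on mean GC content). The number of cilium genes called was 0, except 1 with RLE scaling (INPP5E, transition zone), 3 with DESeq2 (IFT74, KIF7 and INPP5E, 1 each in IFT-B, the motors and the transition zone), 5 with no filter (1 in IFT-B, 1 in the BBSome, 2 motors and 1 in the transition zone; 10.5% of all genes were called) and 1 without wild-type library 1 (KIF7, a motor). Over leaving out each library it ran from 0 to 1, also for the motors. Genes called in all went from 763 to 1775 with DESeq2, 3226 with no filter, 386 with the trend on mean GC content, and 157 to 1189 over leaving out each library. Other cilium genes called, 2 of 115 tested as measured (beside 4.48% of all genes), went to 9, 11 and 1 in the same order. The shares of all genes called in those 3 settings were 11.8%, 10.5% and 2.27%. The stricter count filter gave 1 (beside 4.82% of all genes) and the joint trend 4 (beside 3.23%). Over leaving out each library the number ran from 0 to 5, beside 0.938% to 7.07% of all genes. The median log2 fold change of the cilium genes was -0.496 with upper-quartile scaling, which shifted the median of all genes by -0.12, so that the distance between both medians was -0.32 in either case. It was -0.189, -0.128 and -0.162 with the GC and length trend, the joint trend and the trend on mean GC content removed, and ran from -0.391 to -0.289 over leaving out each library. ARID1B ran from 0.47 to 1.12 over leaving out each library and was -0.15 with the joint trend. The median level per length went from 6.95 to 21.3 CPM per kilobase with the median transcript length. Except where the construction shows it (fewer samples, other genes tested, another length), the cause was not tested.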

Other observations

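Genes of motile cilia, which primary cilia lack, were at low levels. Of 16 such markers 10 had a wild-type mean above 1 CPM, DNAI2 had 0 counts in every library, and FOXJ1 had 0 in wild type. Their summed level was 59.5 to 75.5 CPM in wild type and 47.8 for the shRNA-labelled library. Of the 12 tested markers 10 had negative values, with a median log2 fold change of -0.81 (-0.74 with the GC and length trend removed), and 0 passed edgeR's test (0 higher and 2 lower at an unadjusted p below 0.05). Over all tested genes 53.2% were negative, 4.48% were called, and 15.6% were higher and 9.79% lower at that unadjusted p. CCDC39, which sets the spacing of axonemal dyneins, had the smallest p, at 7.45, 8.50 and 7.75 CPM against 4.11 CPM (log2 fold change -0.94, edgeR adjusted p = 0.150).

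The other marker lists gave the values below. Beside them, 53.2% of all tested genes were negative. EdgeR called 3.65% of all tested genes higher and 0.834% lower, and 2.996% in either direction with the trend removed. Of 8 WNT signalling markers 5 were tested, 4 with negative values, and DKK1, a secreted WNT inhibitor, was called higher, at 1.55, 2.16 and 1.76 CPM in wild type against 20.65 CPM (log2 fold change 3.49, edgeR adjusted p = 0.0175; 3.76 with the trend removed). Of the list of granule-lineage and medulloblastoma markers, VIM measured 2658, 2443 and 2439 CPM against 936.9 CPM and remained called with the trend removed (-1.25). ZIC2 measured 8.93, 10.6 and 8.14 CPM against 24.75 CPM and was not called with the trend removed (0.89, edgeR adjusted p = 0.183). The 8 blood and immune markers summed to 0.466 to 1.39 CPM in wild type and 0.57 in the shRNA-labelled library, with 3 at 0 in every library and 1 tested, which did not pass (edgeR adjusted p = 0.203).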
